A study of Homo sapiens with 12 samples.

Results

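Desmosomes are button-like junctions that join neighbouring epithelial cells and anchor their keratin filaments, and 10 genes that build this assembly were examined out of 23583 features in the deposited tables. They encode the desmosomal cadherins (DSG2, DSC2), the armadillo proteins of the plaque (JUP, PKP2, PKP3), the plakins that tie the plaque to filaments (DSP, PPL, EVPL) and the keratin pair of simple epithelium (KRT8, KRT18). The 10 genes were chosen by name, with the CPM (counts scaled to the size of each library) known in all 4 groups, so their values, their fitted changes and whether these pass the threshold of the fit (an adjusted p of 0.05) are given as a description that supports nothing. All 10 passed the filter on low counts, which kept 16946 features.

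RNA sequencing was done on 2 human hepatocellular carcinoma lines in which circASH2, a circular RNA named after the gene ASH2L, was knocked down. The groups were HCCLM3 with si-circASH2, HCCLM3 with si-NC (the negative control), Huh7 with si-circASH2 and Huh7 with si-NC, with 3 libraries in each of the 4 groups. HCCLM3 is a line known for its metastatic behaviour and Huh7 is a line that keeps many hepatocyte functions; each is a single established line, and the labels give no siRNA sequence, dose or time. Nothing in the labels tells whether replicate libraries stem from different cultures; a p-value here is therefore set against a spread that may be technical only.

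Desmosomal cadherins cross the gap between cells, plakoglobin and plakophilins bind their tails, and plakins reach from there to the keratins. Keratins assemble only as pairs of a type II and a type I protein, and KRT8 with KRT18 is the pair that hepatocytes carry, where it protects the cell against mechanical and toxic stress. Periplakin and envoplakin are better known from stratified epithelia, where they also form part of the cornified envelope.

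Library totals lay between 29006781 and 30858895 counts, and 3 counts in 1 library were worth 0.0981 to 0.105 CPM. Of 8 hepatocyte markers, 5 reached 1 CPM in HCCLM3 and 8 did in Huh7. In HCCLM3, APOA1, TTR and SERPINA1 stayed under 1 CPM, and ALB, AFP and FGB were low but above it. HNF4A averaged 91.4 ± 2.06 CPM with si-circASH2 and 94.9 ± 2.58 CPM with si-NC in HCCLM3. APOB averaged 63.7 ± 1.01 CPM with si-circASH2 and 52.0 ± 3.57 CPM with si-NC there. Summed, the 8 markers gave 165 to 167 CPM in HCCLM3 si-circASH2 and 155 to 157 CPM in HCCLM3 si-NC, most of it from HNF4A and APOB. In Huh7 they gave 31919 to 32582 CPM with si-circASH2 and 34420.2 to 34665 CPM with si-NC. The keratinocyte markers KRT1, KRT5 and KRT14 were at 0 in every group, and KRT10 was the one keratinocyte marker of 5 at 1 CPM or more. Of 6 leukocyte markers CD3E was at 0 in every group and CD68 was the one at 1 CPM or more in HCCLM3, while CD14, LYZ and CD68 were in Huh7. CD68 averaged 187 ± 18.4 CPM with si-circASH2 and 154 ± 10.9 CPM with si-NC in HCCLM3, and 38.6 ± 1.98 CPM with si-circASH2 and 20.7 ± 0.456 CPM with si-NC in Huh7. LYZ averaged 312 ± 12.6 CPM with si-circASH2 and 375 ± 19.4 CPM with si-NC in Huh7. Summed, the leukocyte markers gave 171 to 208 CPM with si-circASH2 and 143 to 165 CPM with si-NC in HCCLM3, and 337 to 365 CPM with si-circASH2 and 383 to 419 CPM with si-NC in Huh7; their part in the results was not tested. Of 4 endothelial markers 2 reached 1 CPM in HCCLM3 and 1 in Huh7. Mitochondrially encoded genes took 6.94% to 10.3% of the counts. Gene counts do not measure the circle by itself. The row of ASH2L, the host gene, may hold reads of sequence that the circle shares with the linear transcripts. ASH2L averaged 27.5 ± 0.969 CPM with si-circASH2 and 32.4 ± 1.59 CPM with si-NC in HCCLM3. In Huh7 it averaged 67.0 ± 1.33 CPM with si-circASH2 and 76.5 ± 3.21 CPM with si-NC (SD, n = 3 each). With si-circASH2 the ASH2L row was lower in both lines. Its log2 fold change was -0.24 ± 0.05 in HCCLM3 (edgeR adjusted p = 0.0014) and -0.19 ± 0.05 in Huh7 (edgeR adjusted p = 0.00304), with the standard error of the fit. Since the row does not count the circle apart from linear transcripts, the levels of ASH2L do not check the knockdown of the circle.

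The 2 desmosomal cadherins lie close together on chromosome 18 of GRCh38 (GENCODE 29), DSG2 at chr18:31498043-31549008 on the plus strand and DSC2 at chr18:31058840-31102522 on the minus strand. Both had lower values after the knockdown in Huh7, so their promoters are shown here, as given by RefSeq on GRCh38.p14 from 250 bases before to 50 bases after the start of transcription. Capitals mark GGGCGG on either strand, a GC box of the kind that SP1 binds.
DSG2 promoter, chr18:31497927-31498226, plus strand: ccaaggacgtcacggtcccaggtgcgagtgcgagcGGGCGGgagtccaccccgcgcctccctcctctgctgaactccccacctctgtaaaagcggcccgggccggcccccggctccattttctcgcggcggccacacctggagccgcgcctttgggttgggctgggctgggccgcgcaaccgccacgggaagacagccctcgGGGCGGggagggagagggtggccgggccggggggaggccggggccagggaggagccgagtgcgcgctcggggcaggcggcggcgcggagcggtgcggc
DSC2 promoter, chr18:31102372-31102671, minus strand: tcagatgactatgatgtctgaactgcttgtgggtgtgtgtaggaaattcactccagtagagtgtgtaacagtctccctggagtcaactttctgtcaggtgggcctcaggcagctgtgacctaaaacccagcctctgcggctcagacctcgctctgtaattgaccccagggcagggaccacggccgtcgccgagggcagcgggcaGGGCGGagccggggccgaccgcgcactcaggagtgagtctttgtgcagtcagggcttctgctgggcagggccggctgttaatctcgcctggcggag
The DSG2 window held GGGCGG at 215 and 48 bases before the start, with a GC content of 76.7%. The DSC2 window held it at 46 bases before the start, with a GC content of 60.7%, and a second DSC2 start in the same table held it at 118 and 36 bases before the start. Over all 35116 promoters of the table, 45.0% held GGGCGG on either strand and the median GC content was 58.7%. TGACTCA, the sequence bound by AP-1, was in none of the promoters found for these genes and in 4.95% of all promoters. Promoters of 5 of the 10 genes were matched (DSP, JUP, DSG2, DSC2 and KRT8). The KRT8 window (chr12:52926420-52926719) lies inside the annotated span of the gene, at an alternative start, so it may not be the main KRT8 promoter.

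The 3′ UTRs of all 10 genes were searched on the transcript strand for TTATACC, for the shifted form TATACCA and for TCGGAGAA, motifs named in earlier work on these data. DSG2 was the one gene that held any of them, with TTATACC at base 966 of a 3′ UTR of 2265 bases, shown here in capitals because DSG2 is the cadherin with the larger change.
DSG2 3′ UTR site, chromosome 18: aaaaatagcaTTATACCtcttccttgt
Of 13999 tested genes with a 3′ UTR, 10.2% held TTATACC, 11.7% held TATACCA and 1.19% held TCGGAGAA. A match of letters is a description and not a binding site.

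DSG2 encodes desmoglein 2, the desmoglein found in all tissues with desmosomes. It stood at 313, 312 and 290.3 CPM in the HCCLM3 si-circASH2 libraries and at 336, 338 and 316 CPM in the HCCLM3 si-NC libraries. In Huh7 it stood at 60.8, 64.8 and 65.6 CPM with si-circASH2 and at 81.3, 78.6 and 82.8 CPM with si-NC. Every si-circASH2 library was below every si-NC library in both lines, narrowly in HCCLM3. The log2 fold change was -0.11 ± 0.04 in HCCLM3 and -0.34 ± 0.04 in Huh7 (standard error of the edgeR fit, as in all log2 fold changes here), and the effect in HCCLM3 minus that in Huh7 was 0.23 ± 0.06. The threshold used throughout is an adjusted p of 0.05 in edgeR's quasi-likelihood test over all genes. In HCCLM3 the value of DSG2 was no longer past it with total counts as the only scaling or without any 1 of 3 libraries (si-NC 1, si-NC 2 or si-circASH2 3). An antisense gene, DSG2-AS1, shares 171 exon bases with DSG2, and since the strand of the libraries is not stated, reads of the pair cannot be told apart.

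DSC2 encodes desmocollin 2, the partner cadherin of desmoglein 2. Its libraries gave 16.3, 15.9 and 16.99 CPM in HCCLM3 si-circASH2 and 17.1, 17.4 and 15.9 CPM in HCCLM3 si-NC, which overlap. In Huh7 they gave 20.6, 23.2 and 23.5 CPM with si-circASH2 and 26.2, 27.8 and 27.4 CPM with si-NC, which do not overlap. The log2 fold change was -0.03 ± 0.07 in HCCLM3 and -0.27 ± 0.07 in Huh7. The effect in HCCLM3 minus that in Huh7 was 0.24 ± 0.10, not past the threshold. The lines ranked oppositely for the 2 cadherins: at baseline (HCCLM3 si-NC over Huh7 si-NC) the log2 fold change was 2.03 ± 0.04 for DSG2 and -0.69 ± 0.07 for DSC2.

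**Figure D1:**
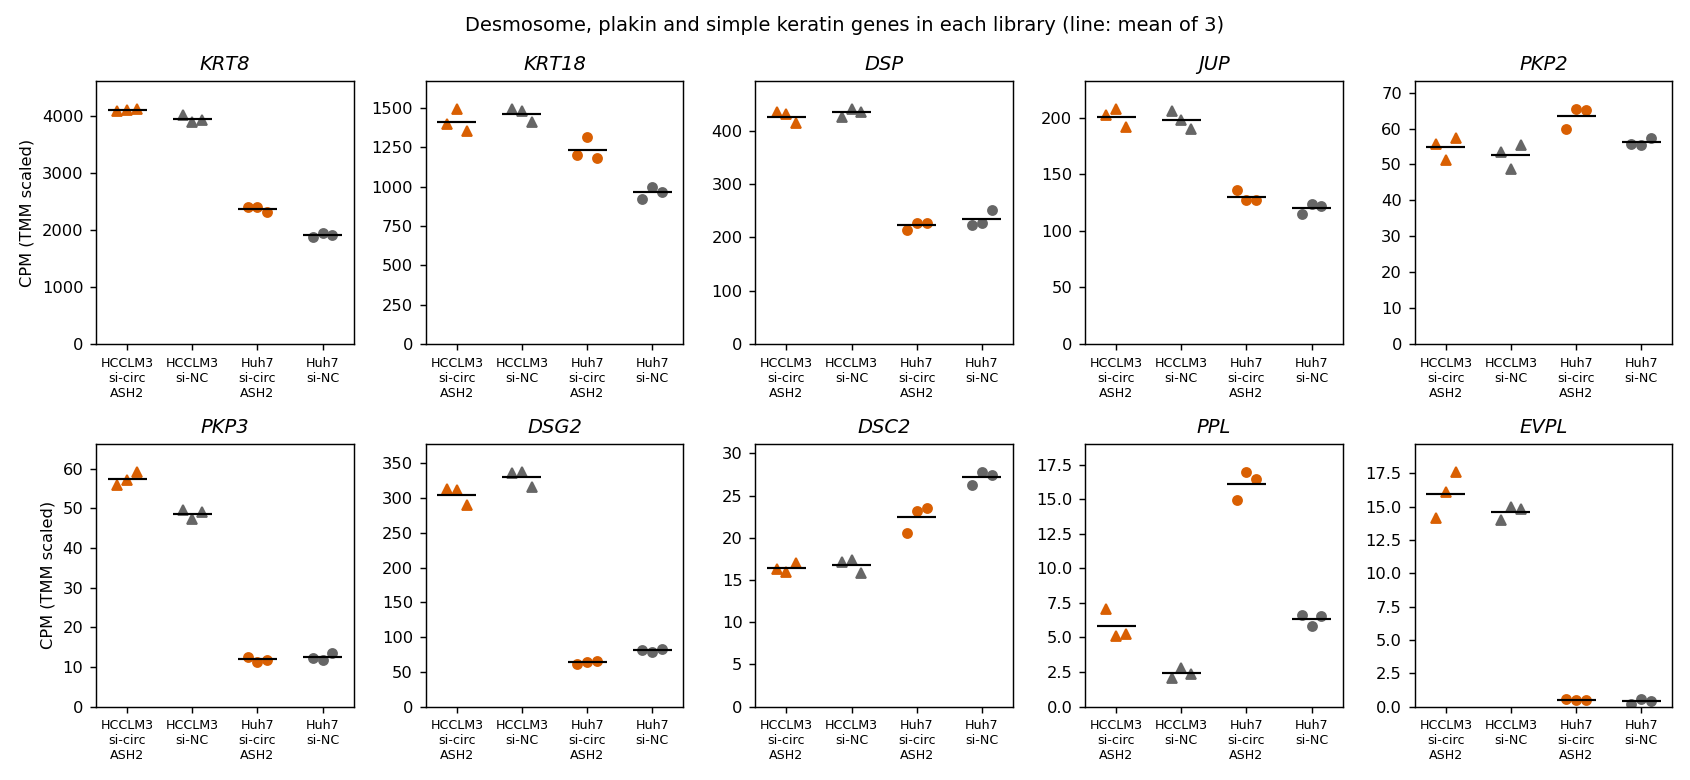
CPM of the 10 genes in each library, with 1 panel a gene, HCCLM3 (triangles) left of Huh7 (circles) and si-circASH2 (orange) left of si-NC (grey); lines are means of 3 libraries and each vertical axis starts at 0. PPL has its si-circASH2 libraries above its si-NC libraries in both lines, while KRT8 and KRT18 stand apart by treatment mainly in Huh7.

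JUP encodes plakoglobin (chr17:41754604-41786931, minus strand), which sits in both desmosomes and adherens junctions. It had 202, 208 and 192 CPM in HCCLM3 si-circASH2 against 206, 198 and 190.3 CPM in HCCLM3 si-NC. In Huh7 it had 136, 127 and 128 CPM with si-circASH2 against 115, 124 and 122 CPM with si-NC. The groups overlapped in HCCLM3 (log2 fold change 0.02 ± 0.04) and stood apart in Huh7 (0.11 ± 0.04). The effect in HCCLM3 minus that in Huh7 was -0.10 ± 0.06, not past the threshold. The Huh7 value lay at the edge: it was not past the threshold when Huh7 was fitted alone or without the filter on low counts. The same held when any 1 of 7 libraries was left out (Huh7 si-NC 1 or 3, Huh7 si-circASH2 1 or 3, HCCLM3 si-NC 2, HCCLM3 si-circASH2 1 or 2).

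PKP2 (chr12:32790745-32896840, minus strand) encodes plakophilin 2, the plakophilin of simple epithelium and heart. It gave 55.8, 51.2 and 57.4 CPM in HCCLM3 si-circASH2 and 53.5, 48.9 and 55.5 CPM in HCCLM3 si-NC. In Huh7 it gave 59.7, 65.4 and 65.2 CPM with si-circASH2 and 55.7, 55.3 and 57.5 CPM with si-NC. Only the Huh7 groups did not overlap, and the log2 fold change was 0.06 ± 0.05 in HCCLM3 and 0.18 ± 0.05 in Huh7. The effect in HCCLM3 minus that in Huh7 was -0.12 ± 0.08, not past the threshold. PKP2 was the gene closest to equal between the lines, with a baseline value of -0.09 ± 0.05, and it lost its place past the threshold in Huh7 without any 1 of 3 Huh7 libraries (si-NC 2, si-circASH2 2 or si-circASH2 3).

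PKP3 (chr11:392614-404908, plus strand) encodes plakophilin 3, which binds most desmosomal proteins and is widespread in epithelia. It stood at 55.8, 57.1 and 59.2 CPM in HCCLM3 si-circASH2 and at 49.5, 47.3 and 49.0 CPM in HCCLM3 si-NC. In Huh7 it stood at 12.6, 11.2 and 11.9 CPM with si-circASH2 and at 12.3, 11.9 and 13.4 CPM with si-NC. Here the groups stood apart in HCCLM3 and overlapped in Huh7, the reverse of PKP2. The log2 fold change was 0.24 ± 0.05 in HCCLM3 and -0.07 ± 0.07 in Huh7, a difference of 0.31 ± 0.09 between the effects. That difference was not past the threshold without Huh7 si-NC 3, where it was 0.26, or with limma on log2(FPKM + 0.1), where it was 0.28. Per length, PKP2 and PKP3 changed places between the lines: the ratio of their FPKM, counts per length and depth as deposited by the authors, was 0.651 ± 0.0423 in HCCLM3 si-circASH2, 0.738 ± 0.0384 in HCCLM3 si-NC, 3.59 ± 0.448 in Huh7 si-circASH2 and 3.15 ± 0.116 in Huh7 si-NC (SD, n = 3 each).

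DSP encodes desmoplakin (chr6:7541575-7586717, plus strand), the plakin that every desmosome needs to hold keratins. It had 434, 431 and 413 CPM in HCCLM3 si-circASH2 against 426, 439.9 and 436 CPM in HCCLM3 si-NC. In Huh7 it had 214, 226 and 226 CPM with si-circASH2 against 222, 226 and 252 CPM with si-NC. The treatments overlapped in both lines, and the log2 fold change was -0.03 ± 0.04 in HCCLM3 and -0.07 ± 0.04 in Huh7. The lines were apart, with a baseline log2 fold change of 0.89 ± 0.04.

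PPL encodes periplakin (chr16:4882507-4960741, minus strand), which links keratins to the plaque and the cell membrane, and it had the largest change of the 10 genes in each line. It stood at 7.09, 5.08 and 5.24 CPM in HCCLM3 si-circASH2 and at 2.05, 2.77 and 2.39 CPM in HCCLM3 si-NC. In Huh7 it stood at 14.9, 16.97 and 16.5 CPM with si-circASH2 and at 6.63, 5.84 and 6.56 CPM with si-NC. The treatments did not overlap in either line, and the HCCLM3 libraries with si-circASH2 reached about the level of the Huh7 libraries with si-NC. The fold change was 2.41 in HCCLM3 and 2.54 in Huh7, or 1.27 ± 0.15 in HCCLM3 and 1.34 ± 0.12 in Huh7 on the log2 scale. The difference between these effects was -0.07 ± 0.20, within its own error. At baseline PPL was lower in HCCLM3, by -1.40 ± 0.15 in log2 fold change.

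The summed level of 5 fibroblast markers also differed by treatment, at 48.5 to 52.7 CPM in HCCLM3 si-circASH2 against 35.2 to 37.8 CPM in HCCLM3 si-NC, and at 55.1 to 56.8 CPM in Huh7 si-circASH2 against 34.1 to 39.9 CPM in Huh7 si-NC. Of the 5, DCN and LUM reached 1 CPM in HCCLM3, where COL1A2 and PDGFRB were at 0 with si-NC, and all but DCN, which was at 0, reached it in Huh7. Most of the sum in HCCLM3 came from LUM, at 48.4 CPM with si-circASH2 and 34.3 CPM with si-NC. In Huh7 most came from COL1A2, at 38.9 CPM with si-circASH2 and 24.4 CPM with si-NC. LUM and PDGFRB were also higher with si-circASH2 in Huh7, while COL1A1 averaged 3.95 CPM with si-circASH2 and 4.21 CPM with si-NC. Both are single established lines, so no share of fibroblasts was part of the design. The part of these markers in the values of PPL was not tested. In bulk RNA, the number of cells that express a marker and the RNA per cell cannot be told apart.

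EVPL encodes envoplakin (chr17:76004502-76027452, minus strand), the usual dimer partner of periplakin in the cornified envelope, and it did not share the pattern of PPL. Its libraries gave 14.1, 16.1 and 17.6 CPM in HCCLM3 si-circASH2 and 14.0, 14.98 and 14.8 CPM in HCCLM3 si-NC. In Huh7 they gave 0.576, 0.464 and 0.5005 CPM with si-circASH2 and 0.230, 0.568 and 0.394 CPM with si-NC, a low level in both groups. The treatments overlapped in both lines, with log2 fold changes of 0.13 ± 0.11 in HCCLM3 and 0.37 ± 0.30 in Huh7. Between the lines EVPL had the widest gap of the 10 genes, 5.19 ± 0.18 on the log2 scale or 36.5 as a fold. Per length the ratio of EVPL to PPL was 2.80 ± 0.743 in HCCLM3 si-circASH2 and 6.07 ± 0.535 in HCCLM3 si-NC. In Huh7 it was 0.0294 ± 0.00511 with si-circASH2 and 0.0597 ± 0.0295 with si-NC, so PPL exceeded EVPL in Huh7 and EVPL exceeded PPL in HCCLM3.

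**Figure D2:**
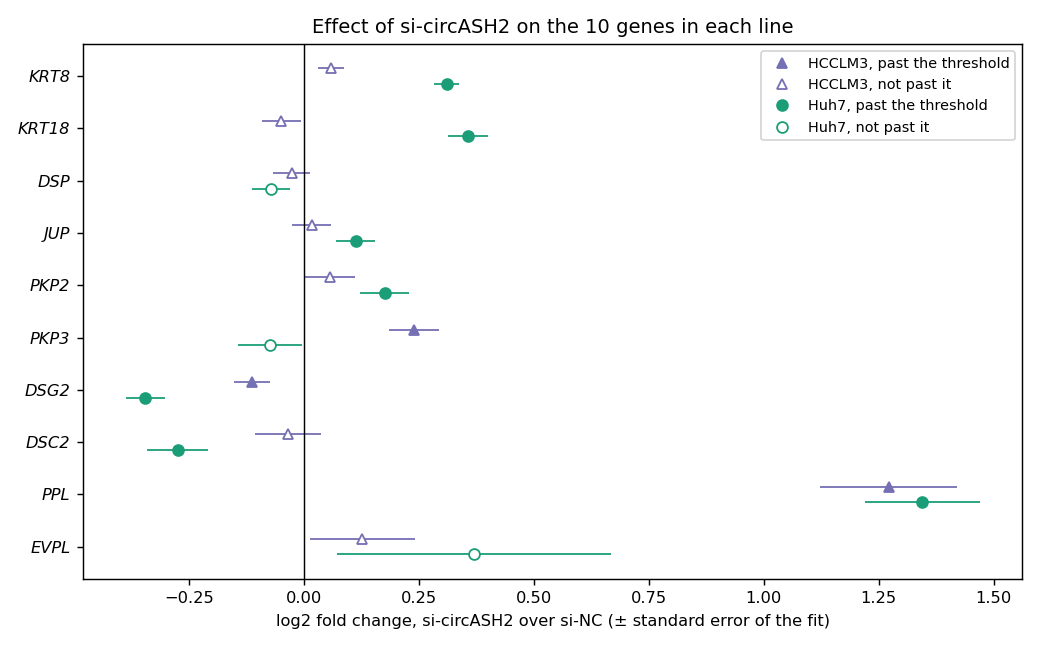
Fitted log2 fold change of si-circASH2 over si-NC for the 10 genes, with HCCLM3 (triangles) above Huh7 (circles); bars are standard errors of the fit and filled points are past an adjusted p of 0.05. PPL stands alone on the right in both lines, at 1.27 in HCCLM3 and 1.34 in Huh7, and the other 9 genes lie between -0.34 and 0.37.

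KRT8 (chr12:52897187-52949954, minus strand) is the type II keratin of simple epithelium. It had 4087, 4100.5 and 4114 CPM in HCCLM3 si-circASH2 against 4005, 3887 and 3917 CPM in HCCLM3 si-NC. In Huh7 it had 2395, 2404 and 2309 CPM with si-circASH2 against 1869.8, 1944 and 1918 CPM with si-NC. The treatments did not overlap in either line, and the gap was wider in Huh7. The log2 fold change was 0.06 ± 0.03 in HCCLM3, not past the threshold, and 0.31 ± 0.03 in Huh7. With DESeq2, or with total counts as the only scaling, the HCCLM3 value was past the threshold, at 0.06 and 0.08.

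KRT18 (chr12:52948871-52952901, plus strand) is its type I partner. It had 1397, 1492 and 1352 CPM in HCCLM3 si-circASH2 against 1492, 1480.3 and 1414 CPM in HCCLM3 si-NC. In Huh7 it had 1201, 1317 and 1181 CPM with si-circASH2 against 923, 999.6 and 966 CPM with si-NC. The treatments overlapped in HCCLM3 and stood apart in Huh7, with log2 fold changes of -0.05 ± 0.04 in HCCLM3 and 0.36 ± 0.04 in Huh7. The effect in HCCLM3 minus that in Huh7 was -0.41 ± 0.06 for KRT18 and -0.25 ± 0.04 for KRT8.

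The 2 keratin genes lie head to head on opposite strands, and their annotated exons share 525 bases, so without the library strand some reads of one may be counted for the other. The annotation also lists 50 pseudogenes named after KRT8 and 68 named after KRT18, with 0 rows in the tables, so the counts of both keratins are uncertain. Per length the ratio of KRT8 to KRT18 was 2.40 ± 0.108 in HCCLM3 si-circASH2, 2.23 ± 0.0590 in HCCLM3 si-NC, 1.59 ± 0.0647 in Huh7 si-circASH2 and 1.65 ± 0.0357 in Huh7 si-NC. KRT8 was thus further above KRT18 in HCCLM3 than in Huh7, under either treatment.

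Across the 10 genes in HCCLM3, 2 were higher and past the threshold after the knockdown (PPL, PKP3), where 15.1% of all tested genes were, and 1 was lower (DSG2), where 15.5% were. In Huh7, 5 were higher (PPL, KRT18, KRT8, PKP2, JUP) beside 16.3% of all genes, and 2 were lower (DSG2, DSC2) beside 15.1%. The median log2 fold change of the 10 was 0.04 in HCCLM3 and 0.14 in Huh7, against 0.00 in HCCLM3 and 0.01 in Huh7 over all tested genes. With limma on the log2 of the deposited FPKM, 2 of the 10 were past the threshold in HCCLM3 (DSG2 was not) and 4 in Huh7 (JUP, PKP2 and DSC2 were not). For the difference between the lines in the effect, 2 had a larger value in HCCLM3 (PKP3, DSG2) beside 9.6% of all genes, and 2 had a smaller one (KRT8, KRT18) beside 11.3%. At baseline, 7 were higher in HCCLM3 than in Huh7 (EVPL, DSG2, PKP3, KRT8, DSP, JUP, KRT18) beside 41.6% of all genes, and 2 were lower (PPL, DSC2) beside 43.6%. The baseline log2 fold change not yet given was 1.96 ± 0.06 for PKP3, 1.04 ± 0.03 for KRT8, 0.72 ± 0.04 for JUP and 0.60 ± 0.04 for KRT18. Since the choice of the 10 genes used these values, nothing is read from these counts. Line and any handling that went with it cannot be told apart at baseline.

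The order of the 10 genes by FPKM, which is a level per length, was set by the keratins. KRT8 had 1929.9 ± 16.0 FPKM in HCCLM3 si-circASH2, 1855 ± 69.1 FPKM in HCCLM3 si-NC, 1099 ± 27.0 FPKM in Huh7 si-circASH2 and 899 ± 11.6 FPKM in Huh7 si-NC (SD, n = 3 each). Among 16946 tested genes its rank was 17 in HCCLM3 si-circASH2, 20 in HCCLM3 si-NC, 26 in Huh7 si-circASH2 and 38 in Huh7 si-NC. KRT18 followed with 805 ± 33.8 FPKM in HCCLM3 si-circASH2, 832 ± 27.4 FPKM in HCCLM3 si-NC, 691 ± 46.0 FPKM in Huh7 si-circASH2 and 545 ± 17.9 FPKM in Huh7 si-NC.

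JUP came next in every group, and below it the lines differed. In HCCLM3 si-NC the order of mean FPKM went on from JUP (53.9) to DSG2 (50.2), DSP (41.6), PKP3 (15.7), PKP2 (11.6), EVPL (2.05), DSC2 (1.60) and PPL (0.340), and the order was the same in HCCLM3 si-circASH2. In Huh7 si-NC it went on from JUP (32.3) to DSP (22.0), PKP2 (12.5), DSG2 (12.3), PKP3 (3.99), DSC2 (2.35), PPL (0.899) and EVPL (0.0524). In that group the libraries of PKP2 and DSG2 overlapped. In Huh7 si-circASH2, PPL stood above DSC2 at 2.26 ± 0.193 FPKM against 1.85 ± 0.388 FPKM, with overlapping libraries. All other neighbours in these orders did not overlap.

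**Figure D3:**
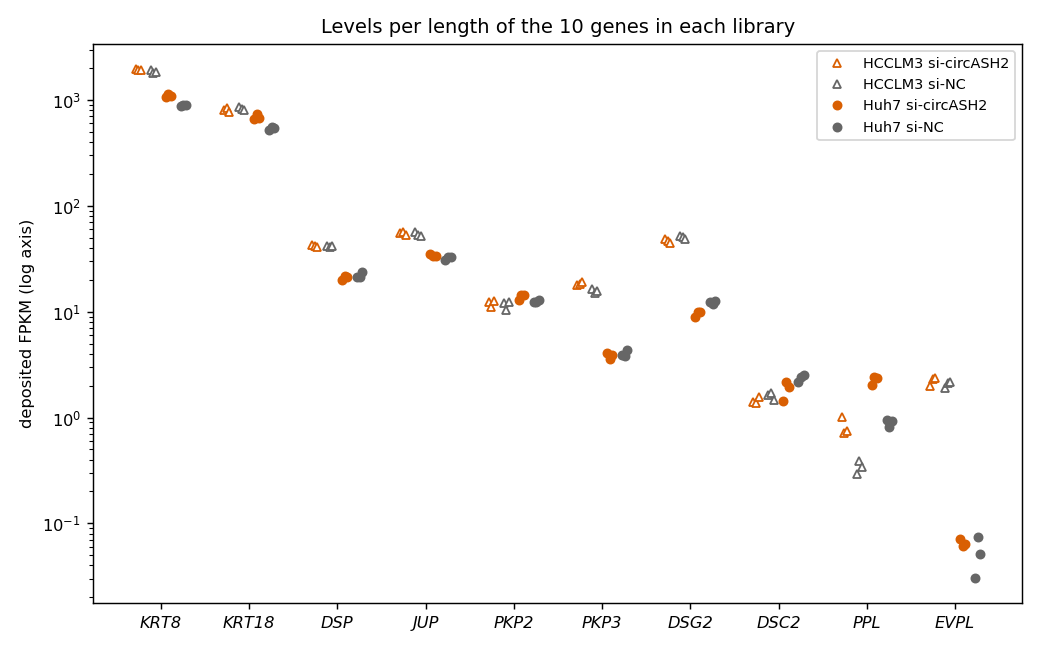
Deposited FPKM of the 10 genes in each library on a log axis, with HCCLM3 as open triangles and Huh7 as filled circles, si-circASH2 in orange and si-NC in grey. KRT8 and KRT18 lie above the other 8 genes in every library, and EVPL is the gene with the widest gap between the lines.

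DSG2 exceeded DSC2 in all groups, by a ratio of 32.4 ± 3.44 in HCCLM3 si-circASH2 and 31.5 ± 1.88 in HCCLM3 si-NC, and of 5.30 ± 0.882 in Huh7 si-circASH2 and 5.25 ± 0.475 in Huh7 si-NC. These ratios differed between treatments by less than the spread between libraries. The ratio of DSP to JUP was 0.758 ± 0.0171 in HCCLM3 si-circASH2 and 0.772 ± 0.0370 in HCCLM3 si-NC, and 0.615 ± 0.0383 in Huh7 si-circASH2 and 0.682 ± 0.0396 in Huh7 si-NC.

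Other listed keratins held a small part of the FPKM. KRT8 made up 64.1% of the FPKM of all listed keratins in HCCLM3 si-circASH2, 64.5% in HCCLM3 si-NC, 57.2% in Huh7 si-circASH2 and 57.8% in Huh7 si-NC, and KRT18 made up 26.7% in HCCLM3 si-circASH2, 28.9% in HCCLM3 si-NC, 35.9% in Huh7 si-circASH2 and 35.0% in Huh7 si-NC. The 23 other type I keratins summed to 269.8 ± 10.6 FPKM in HCCLM3 si-circASH2 and 180.0 ± 1.71 FPKM in HCCLM3 si-NC, and to 134 ± 4.43 FPKM in Huh7 si-circASH2 and 112 ± 0.0511 FPKM in Huh7 si-NC. The 17 other type II keratins summed to 7.89 ± 0.299 FPKM in HCCLM3 si-circASH2 and 8.21 ± 0.271 FPKM in HCCLM3 si-NC, and in Huh7 to 0.0171 ± 0.0165 FPKM with si-circASH2 and 0.00714 ± 0.0124 FPKM with si-NC. In Huh7, KRT8 was therefore nearly the whole FPKM of the listed type II keratins. These sums cover the listed genes only, and some keratin genes of both types were not listed.

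The highest listed type I keratin beside KRT18 was a different gene in each line. KRT20, known from gut epithelium and bladder, rose in HCCLM3, to 499 ± 26.0 CPM with si-circASH2 against 323 ± 7.67 CPM with si-NC (log2 fold change 0.63 ± 0.06, edgeR adjusted p = 2.01e-06), and averaged 0.0442 ± 0.0765 CPM with si-circASH2 and 0.0219 ± 0.0379 CPM with si-NC in Huh7. KRT19, a keratin of bile ducts, rose in Huh7, to 190.2 ± 5.77 CPM with si-circASH2 against 157 ± 0.579 CPM with si-NC (0.27 ± 0.06, edgeR adjusted p = 0.00167), and was at 1.39 ± 0.427 CPM with si-circASH2 and 1.67 ± 0.510 CPM with si-NC in HCCLM3. With limma on the deposited FPKM the Huh7 call of KRT19 was lost (adjusted p 0.103 and 0.395). KRT80 fell in HCCLM3, to 15.1 ± 1.197 CPM with si-circASH2 against 19.6 ± 0.614 CPM with si-NC (-0.37 ± 0.13, edgeR adjusted p = 0.038), a call that was lost without any 1 HCCLM3 library (adjusted p 0.0539 to 0.161) and with limma on log2(FPKM + 0.1) (adjusted p 0.0628). Of 5 keratins of simple and biliary epithelium, 1 rose and 1 fell in HCCLM3, and 1 rose and 0 fell in Huh7; of all tested genes 15.1% rose and 15.5% fell in HCCLM3, and 16.3% rose and 15.1% fell in Huh7. Bile duct markers differed with the line: the 4 of them summed to 12.9 to 14.1 CPM in HCCLM3 si-circASH2 and 11.4 to 12.5 CPM in HCCLM3 si-NC, and to 301 to 311 CPM in Huh7 si-circASH2 and 284 to 291 CPM in Huh7 si-NC. Their part in the keratin levels was not tested, and KRT19 is one of the 4.

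**Figure D4:**
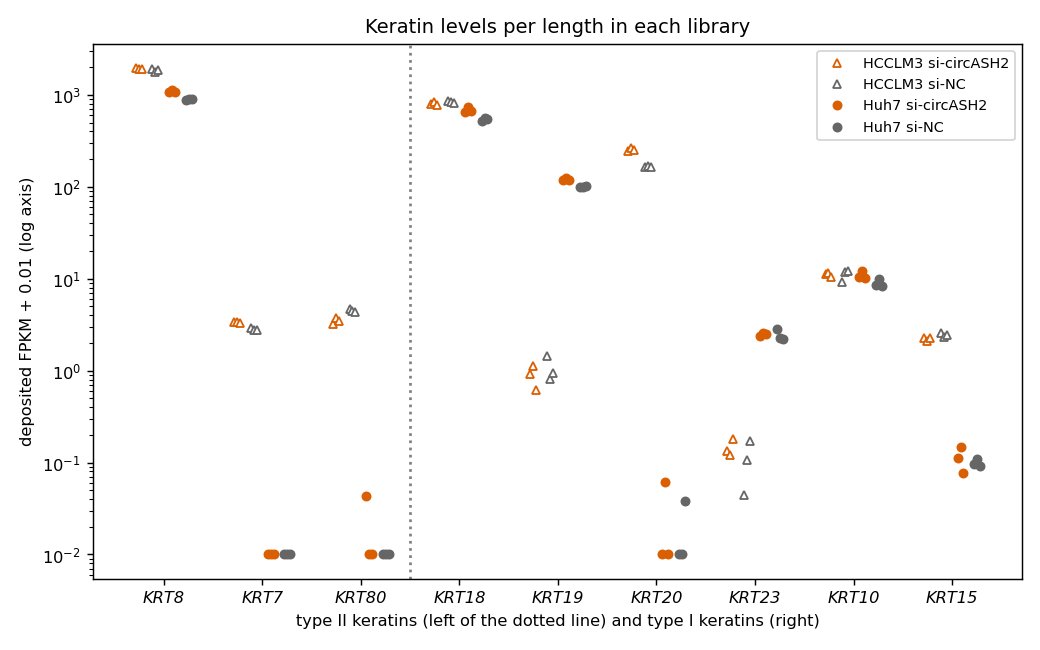
Deposited FPKM plus 0.01 of 9 keratins in each library on a log axis, with type II genes left of the dotted line and type I genes right of it, HCCLM3 as open triangles and Huh7 as filled circles. KRT20 is high in HCCLM3 and KRT19 is high in Huh7, while KRT8 and KRT18 are high in both.

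The listed keratins of stratified epithelium and hair were mostly not expressed. KRT15 had the highest group mean of the stratified list. It averaged 12.4 ± 0.221 CPM with si-circASH2 and 14.1 ± 0.704 CPM with si-NC in HCCLM3. In Huh7 it averaged 0.624 ± 0.215 CPM with si-circASH2 and 0.528 ± 0.0710 CPM with si-NC. Of 18 stratified keratins 5 were tested and 0 passed the threshold of the edgeR test in either knockdown. Of 17 hair keratins 2 were tested and 0 passed. Over all tested genes, 15.1% passed as higher and 15.5% as lower in HCCLM3, and 16.3% and 15.1% in Huh7. At an unadjusted p under 0.05 the stratified list held 1 gene, KRT10, higher in Huh7 (0.32 ± 0.13, edgeR adjusted p = 0.0629), and the hair list held 0; DESeq2 called 0 of both lists.

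Of 10 other desmosome genes, 7 were tested: 3 rose and 0 fell in HCCLM3, and 1 rose and 0 fell in Huh7, with a median log2 fold change of 0.15 in HCCLM3 and 0.05 in Huh7. The shares over all tested genes were 15.1% higher and 15.5% lower in HCCLM3 and 16.3% higher and 15.1% lower in Huh7. PERP, a membrane protein that desmosomes need and a target of p53, rose in both lines. It averaged 187 ± 1.15 CPM with si-circASH2 against 129 ± 4.84 CPM with si-NC in HCCLM3 (0.54 ± 0.04, edgeR adjusted p = 1.04e-09), and 160.2 ± 10.6 CPM with si-circASH2 against 132 ± 1.56 CPM with si-NC in Huh7 (0.28 ± 0.04, edgeR adjusted p = 1.65e-05). The effect was larger in HCCLM3 (0.26 ± 0.06, edgeR adjusted p = 0.00314). PKP4, an armadillo protein related to the plakophilins, rose in HCCLM3, to 113 ± 2.496 CPM with si-circASH2 against 102 ± 2.64 CPM with si-NC (0.15 ± 0.04, edgeR adjusted p = 0.00299), and had -0.02 ± 0.04 in Huh7. DSG1, a desmoglein of skin, rose in HCCLM3 at a low level of 1.09 ± 0.157 CPM with si-circASH2 against 0.485 ± 0.0657 CPM with si-NC (edgeR adjusted p = 0.0128), a call lost without either of 2 libraries (si-NC 1, adjusted p 0.0527; si-circASH2 2, adjusted p 0.0597).

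Among 4 other plakins, which link filaments, microtubules and actin, 2 rose and 1 fell in HCCLM3 (15.1% and 15.5% of all tested genes did), and 3 rose and 0 fell in Huh7 (16.3% and 15.1%). PLEC, plectin, which joins intermediate filaments to hemidesmosomes and to one another, differed in direction: 1429 ± 65.1 CPM with si-circASH2 against 1571 ± 37.3 CPM with si-NC in HCCLM3 (-0.14 ± 0.04, edgeR adjusted p = 0.0187), and 148 ± 5.67 CPM with si-circASH2 against 128 ± 9.10 CPM with si-NC in Huh7 (0.22 ± 0.05, edgeR adjusted p = 0.000829). The difference between those effects was -0.35 ± 0.06 (edgeR adjusted p = 0.000285). In HCCLM3 the call of PLEC was lost without any 1 of 4 libraries (si-NC 1 or 2, si-circASH2 1 or 3; adjusted p 0.0584 to 0.083) and with limma on the deposited FPKM (adjusted p 0.0561 and 0.0726). DST, dystonin, and MACF1, which ties microtubules to actin, rose in both lines by 0.15 and 0.12 in HCCLM3 and by 0.25 and 0.18 in Huh7 on the log2 scale, with edgeR adjusted p = 0.0185 for DST and 0.0385 for MACF1 in HCCLM3, and 0.000386 for DST and 0.00255 for MACF1 in Huh7. The HCCLM3 call was lost without si-NC 3, si-circASH2 1 or si-circASH2 2 for DST, and without si-NC 1, si-NC 3, si-circASH2 1 or si-circASH2 2 for MACF1. No call of DST or MACF1 held with limma on the deposited FPKM, where their adjusted p lay between 0.0912 and 0.443.

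Hemidesmosomes anchor epithelial cells to the matrix and share plectin with the filaments. COL17A1, their transmembrane collagen, rose in HCCLM3, to 18.8 ± 0.817 CPM with si-circASH2 against 8.37 ± 0.347 CPM with si-NC (1.17 ± 0.16, edgeR adjusted p = 9.37e-06). In Huh7 it was at 0.389 ± 0.151 CPM with si-circASH2 and 0.0668 ± 0.116 CPM with si-NC, where 2 of the 3 libraries had 0, so no fold is given (edgeR adjusted p = 0.0033). ITGA6 fell in Huh7, to 206 ± 8.61 CPM with si-circASH2 against 223 ± 4.93 CPM with si-NC (-0.11 ± 0.04, edgeR adjusted p = 0.0253), a call lost without any 1 of 3 Huh7 libraries (si-NC 1, si-NC 2 or si-circASH2 1; adjusted p 0.0528 to 0.147). Of the 4 genes, 1 rose and 0 fell in HCCLM3 (all tested genes: 15.1% and 15.5%), and 1 rose and 1 fell in Huh7 (16.3% and 15.1%); at an unadjusted p under 0.05, 3 were lower in HCCLM3.

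The adherens junction joins cells through cadherins and actin. Of 10 tested genes, 0 rose and 5 fell in HCCLM3, where 15.1% of all tested genes rose and 15.5% fell, and 2 rose and 4 fell in Huh7, where 16.3% rose and 15.1% fell; at an unadjusted p under 0.05, 1 was higher in HCCLM3. CDH2, N-cadherin, fell to 141 ± 5.93 CPM with si-circASH2 against 199 ± 2.07 CPM with si-NC in HCCLM3 (-0.49 ± 0.04, edgeR adjusted p = 9.4e-10), and to 77.5 ± 1.67 CPM with si-circASH2 against 89.5 ± 2.40 CPM with si-NC in Huh7 (-0.21 ± 0.04, edgeR adjusted p = 0.000283). CDH1, E-cadherin, fell in Huh7, to 97.0 ± 5.49 CPM with si-circASH2 against 116 ± 10.6 CPM with si-NC. Its log2 fold change was -0.26 ± 0.06 there (edgeR adjusted p = 0.0012) and -0.10 ± 0.10 in HCCLM3, where it averaged 8.09 ± 0.256 CPM with si-circASH2 and 8.65 ± 0.814 CPM with si-NC. VCL, vinculin, and NECTIN2 fell in HCCLM3 by -0.21 ± 0.04 and -0.28 ± 0.05 (edgeR adjusted p = 0.000101 and 7.64e-05) and had -0.01 ± 0.04 and 0.03 ± 0.05 in Huh7. CTNND1, which binds cadherin tails, fell in HCCLM3 (-0.13 ± 0.03, edgeR adjusted p = 0.00114) and rose in Huh7 (0.10 ± 0.03, edgeR adjusted p = 0.00707).

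**Figure D5:**
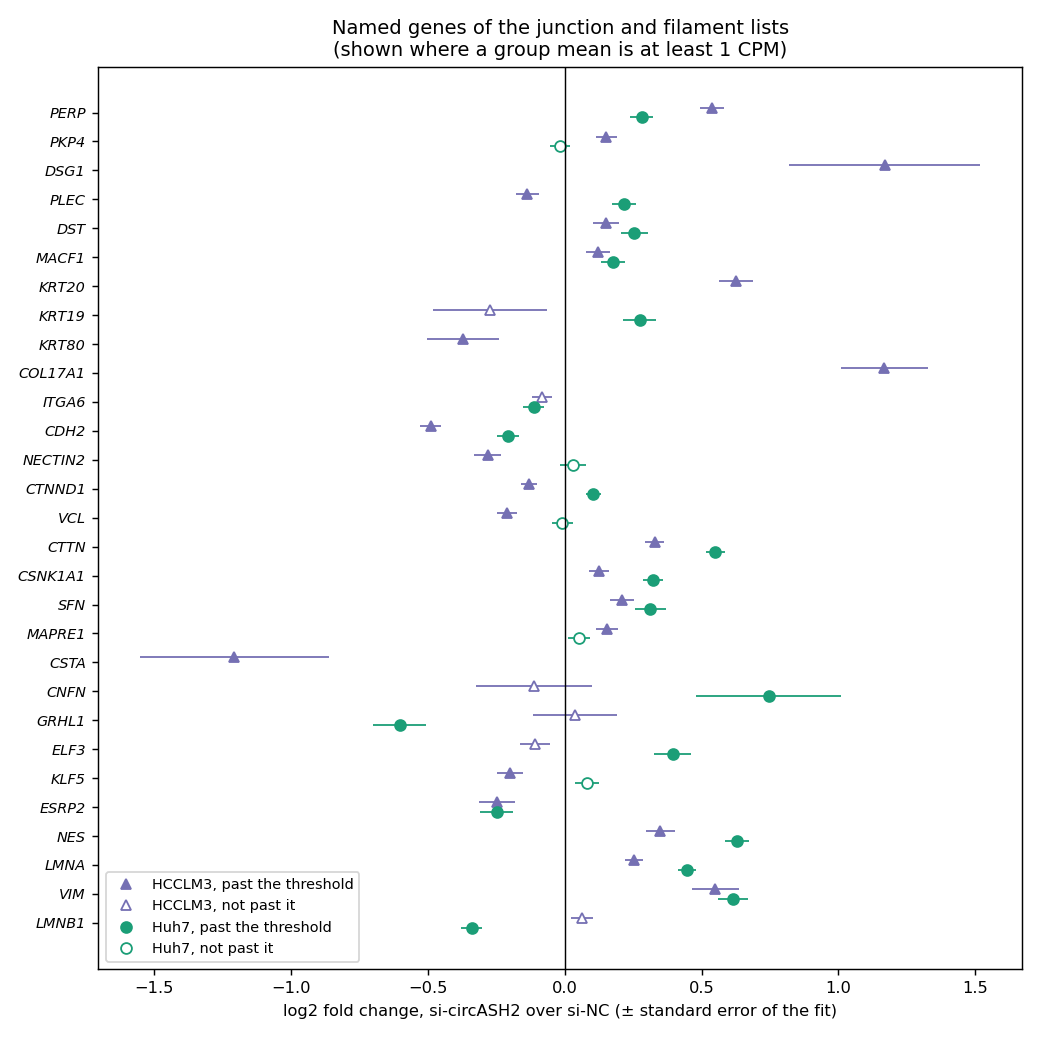
Fitted log2 fold change of si-circASH2 over si-NC for list genes named for passing the threshold, with HCCLM3 (triangles) above Huh7 (circles). The genes come from the 11 other lists except those of stratified and hair keratins, which had none. Bars are standard errors and filled points are past an adjusted p of 0.05. A point is left out where neither group mean reaches 1 CPM. PERP, CTTN, NES, LMNA and VIM lie right of 0 in both lines, and CDH2 and ESRP2 lie left of it.

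Of 8 genes that bind or organise keratins, 4 rose and 0 fell in HCCLM3 (beside 15.1% and 15.5% of all tested genes), and 3 rose and 0 fell in Huh7 (beside 16.3% and 15.1%); at an unadjusted p under 0.05, 1 was lower in each line. CTTN, cortactin, an actin-binding protein, reached 345 ± 7.22 CPM with si-circASH2 against 275 ± 6.89 CPM with si-NC in HCCLM3 (0.33 ± 0.03, edgeR adjusted p = 1.08e-07), and 231 ± 2.65 CPM with si-circASH2 against 158 ± 5.79 CPM with si-NC in Huh7 (0.55 ± 0.04, edgeR adjusted p = 3.13e-11). SFN, the 14-3-3 protein of epithelium, which binds keratins, rose by 0.21 ± 0.04 in HCCLM3 and 0.31 ± 0.06 in Huh7 (edgeR adjusted p = 0.000537 and 0.00013). CSNK1A1, a kinase found with keratin filaments through FAM83H, rose by 0.13 ± 0.04 in HCCLM3 and 0.32 ± 0.04 in Huh7 (edgeR adjusted p = 0.0114 and 3.32e-07), and its HCCLM3 call was lost without si-NC 1 (adjusted p 0.0656) or si-circASH2 1 (adjusted p 0.0994) and with limma on the deposited FPKM (adjusted p 0.0733 and 0.0767).

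Among 10 tested intermediate filament genes other than keratins, 5 rose and 0 fell in HCCLM3, and 3 rose and 1 fell in Huh7. Over all tested genes 15.1% rose and 15.5% fell in HCCLM3, and 16.3% rose and 15.1% fell in Huh7. VIM, vimentin, reached 10.5 ± 0.225 CPM with si-circASH2 against 7.16 ± 0.662 CPM with si-NC in HCCLM3 (0.55 ± 0.09, edgeR adjusted p = 2.46e-05), and 105 ± 8.81 CPM with si-circASH2 against 68.4 ± 1.67 CPM with si-NC in Huh7 (0.61 ± 0.06, edgeR adjusted p = 7.72e-09). NES, nestin, rose by 0.35 ± 0.05 in HCCLM3 and 0.63 ± 0.05 in Huh7 (edgeR adjusted p = 1.49e-05 and 3.3e-10). LMNA, the nuclear lamin A and C gene, rose by 0.25 ± 0.03 in HCCLM3 and 0.45 ± 0.03 in Huh7 (edgeR adjusted p = 2.01e-06 and 5.54e-10). LMNB1, lamin B1, fell in Huh7 (-0.34 ± 0.04, edgeR adjusted p = 3.49e-07) and had 0.06 ± 0.04 in HCCLM3.

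Genes of the cornified envelope, where PPL and EVPL are known to work in skin, were low. Of 13 with a row 5 were tested, and 0 rose and 1 fell in HCCLM3 (15.1% and 15.5% over all tested genes), and 1 rose and 0 fell in Huh7 (16.3% and 15.1%); at an unadjusted p under 0.05, 1 was higher in HCCLM3. CSTA, a protease inhibitor, fell in HCCLM3, to 0.591 ± 0.195 CPM with si-circASH2 against 1.37 ± 0.287 CPM with si-NC (edgeR adjusted p = 0.00923), and CNFN rose in Huh7, to 1.24 ± 0.432 CPM with si-circASH2 against 0.736 ± 0.127 CPM with si-NC (edgeR adjusted p = 0.0354). Both calls were lost without a single library (CSTA without si-circASH2 1, adjusted p 0.0541; CNFN without si-NC 2, si-NC 3 or si-circASH2 3, adjusted p 0.0662 to 0.286).

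Of 7 tested regulators of epithelial genes, 1 rose and 2 fell in HCCLM3, beside 15.1% and 15.5% of all tested genes, and 1 rose and 2 fell in Huh7, beside 16.3% and 15.1%. GRHL1, a factor known to control desmosomal cadherin genes in mouse skin, fell in Huh7, to 16.5 ± 1.87 CPM with si-circASH2 against 25.1 ± 2.53 CPM with si-NC (-0.60 ± 0.10, edgeR adjusted p = 3.37e-05), and had 0.04 ± 0.15 in HCCLM3. ELF3 rose in Huh7 (0.39 ± 0.07, edgeR adjusted p = 0.000127), KLF5 fell in HCCLM3 (-0.20 ± 0.05, edgeR adjusted p = 0.00189), and ESRP2, a splicing regulator, fell in both lines by -0.25 (edgeR adjusted p = 0.00525 in HCCLM3 and 0.00273 in Huh7), a call lost in HCCLM3 without si-circASH2 2 (adjusted p 0.0562).

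For scale, TPM4, a tropomyosin gene, reached 617 ± 28.3 CPM with si-circASH2 against 304 ± 6.69 CPM with si-NC in HCCLM3 and 374 ± 12.5 CPM with si-circASH2 against 139 ± 5.69 CPM with si-NC in Huh7, a log2 fold change of 1.02 ± 0.04 in HCCLM3 (edgeR adjusted p = 6.16e-15) and of 1.43 ± 0.04 in Huh7 (edgeR adjusted p = 9.39e-18). Of the 10 genes, only PPL had a log2 fold change above 1 in either knockdown.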

How the data were processed

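Total RNA of 12 libraries (HCCLM3 and Huh7, each with si-circASH2 and si-NC, 3 libraries a group) was extracted with an RNeasy kit and prepared with a SMARTer mRNA kit, per the labels' protocols. The deposited gene counts are raw counts per gene and library, per the file headers. The deposited FPKM were scaled for gene length and library depth by the authors, per the file headers, and served here to compare levels between genes and as an alternative. The aligner, counter, annotation and strand were not given in the sources used here. For these human libraries the builds hg38, GRCm38 and mm10 are listed together, with no role stated, per the submitters' processing notes.

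Counts were fitted with edgeR 4.0.16 in R 4.3.3: filterByExpr over the 4 groups (minimum count 10), TMM scaling, 1 coefficient per group, robust quasi-likelihood test with 8 residual degrees of freedom, and Benjamini-Hochberg adjustment over 16946 features with a threshold of 0.05. The 4 comparisons were the knockdown in each line, the difference of both effects (HCCLM3 minus Huh7) and the baseline (HCCLM3 si-NC over Huh7 si-NC). The standard error was taken as the size of a log2 fold change over the root of its F statistic. The common biological coefficient of variation was 5.65%. CPM are TMM scaled. Between replicates of a group the chi-square of counts per degree of freedom was 3.76 to 8.06, more than counting noise alone gives. Each library was treated as 1 sample. This spread cannot tell separate cultures from separate preparations of 1 culture. The procedure was tested on simulated data for the knockdown in Huh7. It called 59 of 100 genes with a log2 change of 0.5 and 91 of 100 with a change of 1. It also called 11 unchanged genes. A small change can therefore be missed, and a value not past the threshold does not show that a gene was unchanged.

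The 10 genes and the 11 other lists were chosen with earlier results of these data known. Named from each list were at most 4 genes past the threshold in a knockdown or in the difference, by smallest p. The gene with the highest group mean in its list was picked too, which added PNN, KRT15, KRT86 and FLG. Of these only KRT15 has its levels given. Some named genes are left to the closing section or given by count. A few list genes outside this rule, such as CDH1 and KRT10, are given beside them. Genes with the nearest pattern were sought among 11613 genes with at least 5 CPM in a group. Positions and 3′ UTRs came from GENCODE 29 (GRCh38), where symbols were matched, and promoters from RefSeq (GRCh38.p14). Alternatives were other scalings, no filter, DESeq2 1.42.0, limma 3.58.1 on log2(FPKM + 0.1) and log2(FPKM + 1), each line fitted alone, a replicate block, and each library left out in turn.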

Additional observations from a re-analysis of the deposited data

Results flagged for a closer look

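The effect of the knockdown differed between the lines, by the edgeR test of the difference itself (HCCLM3 effect minus Huh7 effect, on the log2 scale), for the genes below; over all tested genes 9.6% had a difference above 0 and past the threshold and 11.3% one below 0.

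Of the 10 junction and keratin genes, the difference was 0.31 for PKP3, 0.23 for DSG2, -0.25 for KRT8 and -0.41 for KRT18. PKP3 was higher with si-circASH2 in HCCLM3, DSG2 was lower in both lines and further so in Huh7, and the keratin pair was higher in Huh7. Since these genes were chosen with their values known, the differences are a description.

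Among the other desmosome and plakin genes it was 0.26 for PERP, 0.17 for PKP4 and -0.35 for PLEC. The value of PKP4 was not past the threshold without Huh7 si-NC 2 (0.16) or HCCLM3 si-NC 1 (0.15).

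Among adherens junction genes it was -0.28 for CDH2, -0.31 for NECTIN2, -0.24 for CTNND1 and -0.20 for VCL. It was -0.19 for CTNNA1 and 0.11 for CTNNB1, so the signs were not all alike.

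Among keratin-binding genes it was -0.22 for CTTN and -0.20 for CSNK1A1 (-0.15 and not past the threshold with limma on the deposited FPKM), and for the cornified envelope gene CSTA it was -1.61. The value of CSTA, a gene of low counts in every group, was not past the threshold without any 1 of 7 libraries (Huh7 si-NC 2 or 3, Huh7 si-circASH2 1, HCCLM3 si-NC 2 or 3, HCCLM3 si-circASH2 1 or 3), where it lay between -1.59 and -1.40.

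Among regulators it was 0.64 for GRHL1, -0.50 for ELF3 and -0.28 for KLF5; GRHL1 was not past the threshold without HCCLM3 si-NC 3 (0.55). Among other filament genes it was -0.28 for NES, -0.19 for LMNA and 0.40 for LMNB1. TPM4 had -0.40.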

How the results depend on the processing

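Of the 10 genes, 7 were past the threshold in Huh7; with limma on log2(FPKM + 0.1) the number was 4 and on log2(FPKM + 1) it was 4. The other 160 recomputed counts of genes stayed within 1.5 times of their value, and of 2616 recomputed log2 fold changes of single genes 22 turned their sign, 0 of them past the threshold in either fit. Leaving out 1 library at a time gave 4281 to 5311 genes past the threshold in HCCLM3, 4453 to 5331 in Huh7, 3047 to 3347 for the difference of both effects and 14270 to 14626 at baseline. Of the 10 genes it gave 2 to 3, 5 to 7, 3 to 4 and 9 to 10 in the same comparisons. DESeq2 gave the same number of calls as edgeR in every other list, line and direction, except that 3 adherens junction genes in place of 4 fell in Huh7. No scaling moved the median log2 fold change over all genes in a knockdown past 0.03. PPL stayed past the threshold in both lines under every alternative run, as did PKP3 in HCCLM3 and KRT8, KRT18 and DSG2 in Huh7. With limma on log2(FPKM + 1) the difference of the effects on PPL, at -0.34, was past it. That offset exceeds the mean FPKM of PPL in HCCLM3 (0.824 with si-circASH2, 0.340 with si-NC) and shrinks folds at such levels. With log2(FPKM + 0.1) the difference was not past the threshold. Without HCCLM3 si-NC 3, PKP2 was past it at baseline, at -0.13. ITGA6 in Huh7 was at or above the threshold with upper quartile factors or total counts, and CNFN in Huh7 and JUP were when Huh7 was fitted alone. With the replicate number as a block, 5215 genes passed in HCCLM3, 5349 in Huh7 and 3533 for the difference; JUP missed the threshold in Huh7 under the block and KRT80, with counts in 1 of the 6 Huh7 libraries, passed it. Deviations of libraries with the same number correlated by -0.203 to 0.104 and those with different numbers by -0.171 to 0.143. Libraries of the same number were thus no more alike by this measure. With 3 libraries a group it cannot exclude a pairing. Adding pseudogene rows to KRT8 and KRT18 was not run, since the tables hold 0 such rows.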

Other observations

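The genes whose 3 fitted log2 fold changes (knockdown in HCCLM3, knockdown in Huh7, baseline) lay nearest to those of the 10 genes, out of 11613 compared, were named by Euclidean distance, a measure over 4 groups that says nothing of shared function. Nearest to PPL was PLA1A, a phospholipase, at a distance of 0.52; it had 0.96 in HCCLM3, 1.57 in Huh7 and -1.05 at baseline, beside 1.27, 1.34 and -1.40 for PPL. The other 9 genes had a neighbour within 0.094: NFX1 for DSP, CYTH2 for JUP, FAM175A for PKP2, CEP72 for PKP3, LGALS3BP for EVPL, NUDCD1 for DSG2, ERI1 for DSC2, FOXK1 for KRT8 and ME1 for KRT18. PPL had thus the most distant nearest gene of the 10.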
